A study of Mus musculus with 16 samples.

Results

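The extracellular matrix network built from aggrecan and hyaluronan was followed through disc injury as 10 genes, taken from the deposited expression table by their gene names. They were Acan and Vcan, which encode proteoglycan core proteins, Hapln1 and Hapln3, which encode link proteins, the hyaluronan synthase genes Has1, Has2 and Has3, the receptor gene Cd44, and Cemip and Tnfaip6, whose products cut and modify hyaluronan. All 10 were found among the 49315 genes of the table and all 10 passed the filter on low values that 24188 genes passed. The libraries are bulk RNA sequencing of intervertebral discs from 16 mice, and the tissue of a mouse was pooled from 4 tail discs freed of the cartilage endplate, so that each library stands for 1 animal. The groups were wild type with intact discs (3 mice), wild type with injured discs (4 mice), Adam8EQ mutants with intact discs (4 mice) and Adam8EQ mutants with injured discs (5 mice). Adam8 encodes a membrane-bound metalloprotease, and the EQ allele is known as an exchange in its active site that removes the protease activity. The series title names DBA, an inbred strain, as the comparison, and the strain background of the mutants, the ages, the kind of injury and the time after it are not given in the labels. The genotype of wild-type mice was taken from the sample titles, because that field is cut short in their labels.

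Aggrecan carries a dense coat of negatively charged sugar chains that holds water in the disc and lets it bear load. Its core protein binds the long sugar polymer hyaluronan, and link protein locks the bond, so that many aggrecan molecules hang on each hyaluronan strand. Versican is a related core protein with the same kind of hyaluronan-binding end. Hyaluronan itself is spun out at the cell surface by the Has enzymes, held by the receptor CD44, cut into fragments with the help of Cemip, and joined to protein heavy chains by the product of Tnfaip6, TSG-6.

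The libraries held 10193598 to 24832148 reads as implied by the deposited values, which are transcripts per 1000000 (TPM), read numbers divided by gene length and scaled to the same total in every library. TPM values can therefore be compared between genes as levels per length. Each of the 6 cartilage and annulus markers reached 1 TPM in at least 1 intact mouse of each genotype, though Matn3 was low, at 0.417 to 2.94 TPM. Their summed levels were 17903 to 25929.7 TPM in intact discs, of which Chad made up 13184 to 18411 TPM. Of the 6 notochordal markers, Shh was at 0.485 TPM or below and Noto at 0.785 TPM or below in every library, while the other 4 were present in intact discs of both genotypes, and Brachyury (T) stood at 1789 to 3370.1 TPM there. Adam8 mRNA lay at 0.956 to 2.97 TPM in the intact discs, at 3.52 to 66.3 TPM in the injured wild-type discs and at 16.2 to 264.1 TPM in the injured mutant discs, and a change of a single residue is not visible in such a level. In the injured wild-type group, mice 1 and 2 stood near the intact mice and mice 3 and 4 near the injured mutants for Has1, Cd44, Cemip and Tnfaip6. Library names begin with A8 for mutants 1 and 2 of each group, with M for the other mutants, and with D for all wild-type mice, and what these letters stand for is not stated. Naming and genotype can therefore not be told apart.

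After injury in mutants, 6 of the 10 genes rose and 1 fell. Cd44, Tnfaip6, Cemip, Has1, Hapln1 and Has2 were higher in injured mutant discs, Vcan was lower, and Acan, Hapln3 and Has3 did not pass the test. The test was limma on log2(TPM + 1) over all 24188 genes, with an adjusted p under 0.05 as the threshold. Changes are differences of mean log2(TPM + 1), injured minus intact, each followed after ± by the standard error (SE) of the fit, and they understate the change of genes with low levels. In the same comparison 30.8% of all genes tested were called, 13.1% higher and 17.7% lower. The 7 genes called were also the 7 whose injured and intact TPM values did not overlap, a separation seen in 27.2% of all genes tested. The median change was 0.97 for the 10 genes and -0.08 for all genes tested. In bulk tissue, fewer cells of a type and less RNA per cell cannot be told apart.

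In wild-type mice 0 of the 10 genes were called with limma after injury, where 0.116% of all genes tested were called. At an unadjusted p under 0.05 there were 6 of the 10, Cd44, Cemip, Tnfaip6, Hapln1, Has1 and Has2, against 17.2% of all genes. Injured and intact values did not overlap for 4 of the 10, Vcan, Cd44, Cemip and Tnfaip6, against 15.6% of all genes. The count depended on injured wild-type mouse 1. Without it, Cd44 (change 2.40, limma adjusted p 0.02217) and Cemip (change 1.32, limma adjusted p 0.03305) were called, where 1.93% of all genes were. The differences between genotypes are given after the single genes.

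**Figure D1:**
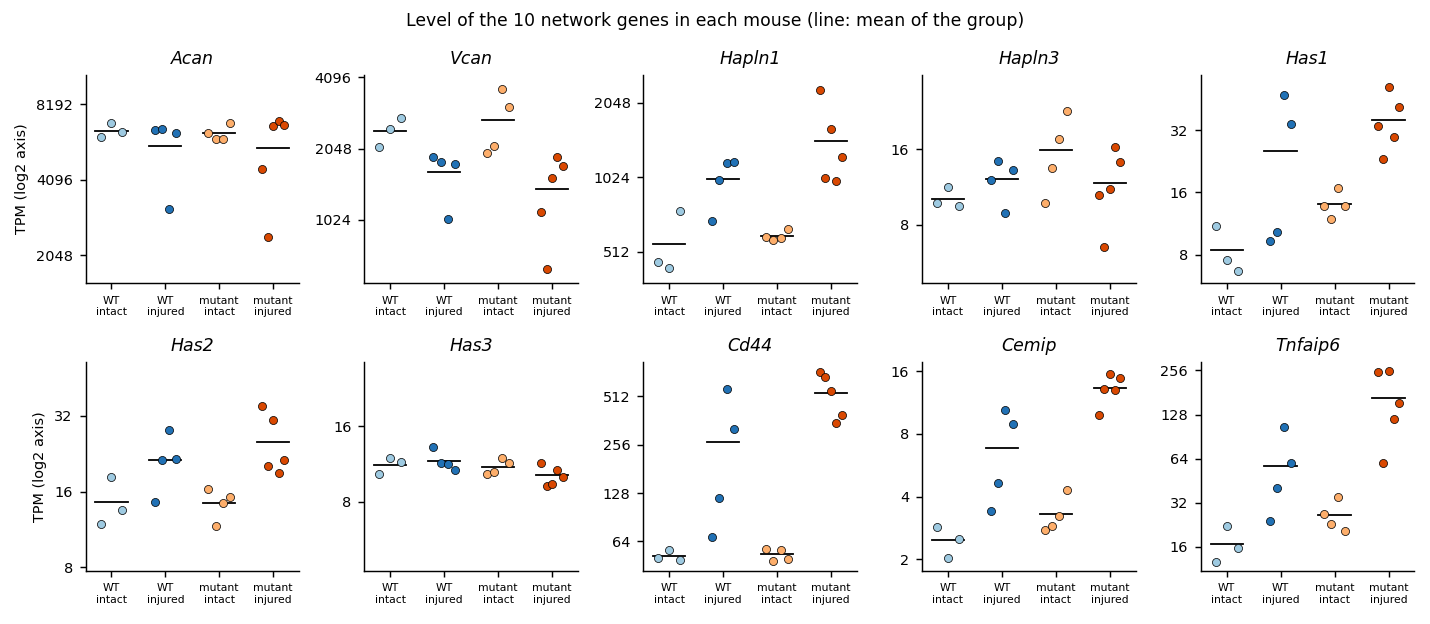
Level of each of the 10 genes in each mouse, in TPM on a log2 axis that differs between panels. Each point is 1 mouse, the line is the arithmetic mean of the group, and groups are wild type (WT) and mutant, intact and injured. The injured mutant points of Cd44, Cemip and Tnfaip6 all lie above the intact points, and injured wild-type mice 3 and 4 lie above mice 1 and 2 for these genes.

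Acan was among the most abundant transcripts of the disc, ranking 9th to 25th of all genes in the 16 libraries. It stood at 6074.5, 6878 and 6317 TPM in the intact wild-type mice and at 6454, 6539, 3130.1 and 6275.5 TPM in the injured wild-type mice. In mutants it stood at 6309.8, 5926, 5926.5 and 6913 TPM in intact discs and at 4515, 2426.5, 6676, 7023.5 and 6746 TPM in injured discs. The groups overlapped. Injured wild-type mouse 3 and injured mutants 1 and 2 lay below every intact mouse, and the other 6 injured mice lay within or above the intact range. The change with injury was -0.29 ± 0.35 in mutants (limma adjusted p 0.563) and -0.26 ± 0.40 in wild-type mice (limma adjusted p 0.7661), so neither passed. The 2 low injured mutants are the A8 pair, and within mutants of 1 naming the change was -0.89 for A8 (limma adjusted p 0.2453) and 0.09 for M (limma adjusted p 0.9055).

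Vcan had the next highest mean of the 10 over all 16 libraries, 1969 TPM, and fell with injury in mutants, where its mean of 1377 TPM lay below the 1429 TPM of Hapln1. It stood at 2078.0, 2470.5 and 2759 TPM in intact and at 1894, 1801.5, 1030.6 and 1769.9 TPM in injured wild-type discs. The mutant values were 1964, 2097, 3665 and 3084 TPM in intact discs and 1101, 634.3, 1538.5, 1884 and 1730.0 TPM in injured discs. Every injured mouse lay below every intact mouse of its genotype, and the lowest values again came from injured wild-type mouse 3 and injured mutant 2. The change was -1.02 ± 0.31 in mutants (limma adjusted p 0.02362), a level on the TPM + 1 scale that was 2.03-fold lower, and -0.62 ± 0.36 in wild-type mice (limma adjusted p 0.38). The call in mutants was lost without intact mutant 3 (-0.86, limma adjusted p 0.07037), intact mutant 4 (-0.94, limma adjusted p 0.0651) or injured mutant 1 (-0.97, limma adjusted p 0.05013). It was also lost in a fit of the mutant groups alone (limma adjusted p 0.05006).

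Set against Acan in the same library, a ratio that no scaling of the library can alter, versican mRNA was lower in injured discs of both genotypes. There were 37.9 ± 5.05 Vcan TPM per 100 Acan TPM in intact (SD, n = 3) and 29.5 ± 2.40 in injured wild-type discs (SD, n = 4). Mutant discs held 43.2 ± 13.6 when intact (SD, n = 4) and 25.2 ± 1.502 when injured (SD, n = 5). The values did not overlap in either genotype, at 34.2 to 43.7 against 27.6 to 32.9 in the wild type and 31.1 to 61.9 against 23.0 to 26.8 in mutants. Of the mice low in Acan, injured mutants 1 and 2 stood at 24.4 and 26.1, within the range of the other injured mutants. Injured wild-type mouse 3 held the highest ratio of its group, 32.9, against 27.6 to 29.3 in the others. The ratio was chosen after the values were seen and is given without a test.

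Hapln1, the link protein of cartilage aggregates, rose with injury in mutants. Wild-type mice held 464.9, 438.5 and 746.4 TPM in intact discs and 680.3, 998.3, 1165 and 1181 TPM in injured discs. Intact mutants held 584.8, 572.7, 582.9 and 630.7 TPM, and injured mutants 2313, 1012.9, 1599.6, 985.6 and 1236 TPM. All 5 injured mutants lay above every intact mouse, and in the wild type only injured mouse 1 lay within the intact range. The change was 1.19 ± 0.25 in mutants (limma adjusted p 0.003574) and 0.88 ± 0.28 in wild-type mice (limma adjusted p 0.1732). In Hapln1 TPM per 100 Acan TPM, the injured mutants reached 14.03 to 51.2 against 9.12 to 9.84 in intact mutants. In wild-type mice the ratio was 10.5 to 37.2 after injury and 6.38 to 11.8 without it, so that 1 injured value lay within the intact range. The highest ratios came from the mice with low Acan, at 51.2 in injured mutant 1, 41.7 in injured mutant 2 and 37.2 in injured wild-type mouse 3. This ratio, too, is given without a test.

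Hapln3, a link protein with a wider tissue range, was a minor transcript, and link protein mRNA was almost all Hapln1. Hapln3 stood at 9.76, 11.3 and 9.495 TPM in intact and 12.1, 14.3, 8.92 and 13.2 TPM in injured wild-type discs. Mutants held 9.79, 13.4, 17.5 and 22.8 TPM in intact and 10.6, 6.53, 11.1, 16.4 and 14.3 TPM in injured discs. The groups overlapped throughout, and the change was -0.40 ± 0.25 in mutants (limma adjusted p 0.2451) and 0.22 ± 0.28 in wild-type mice (limma adjusted p 0.7131). Its level is uncertain for a further reason. In the GENCODE M21 annotation of GRCm38, Hapln3 (chromosome 7, 79115102 to 79131018, minus strand) ends 2 bases from the end of Acan (chromosome 7, 79053483 to 79115099, plus strand), and whether the counting used strand is not given in the sources used here. Hapln1 (chromosome 13, 89539796 to 89611652, plus strand) and Vcan (chromosome 13, 89655312 to 89742509, minus strand) are neighbours as well, 43659 bases apart, and moved in opposite directions in injured mutants.

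Of the 3 hyaluronan synthase genes, Has1 and Has2 rose with injury in mutants and Has3 did not pass the test. Has1 stood at 11.1, 7.52 and 6.68 TPM in intact wild-type discs and at 9.34, 10.3, 47.4 and 34.2 TPM in injured ones. Mutants held 13.7, 11.9, 16.8 and 13.8 TPM in intact and 33.4, 23.4, 51.9, 29.6 and 41.5 TPM in injured discs. Injured wild-type mice 1 and 2 stayed at the intact level, and mice 3 and 4 reached the level of the injured mutants. The change was 1.25 ± 0.39 in mutants (limma adjusted p 0.02646) and 1.19 ± 0.45 in wild-type mice (limma adjusted p 0.2182). The call in mutants was lost without intact mutant 1 (limma adjusted p 0.05584), intact mutant 2 (limma adjusted p 0.06902), intact mutant 4 (limma adjusted p 0.05597) or injured mutant 3 (limma adjusted p 0.06252), with changes of 1.11 to 1.25.

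Has2, the main synthase of embryonic tissues, moved less. Wild-type mice held 11.9, 18.3 and 13.6 TPM in intact and 14.6, 21.4, 28.0 and 21.6 TPM in injured discs. Intact mutants held 16.4, 11.7, 14.4 and 15.2 TPM and injured mutants 35.0, 20.2, 30.9, 19.0 and 21.5 TPM, with no overlap. The change was 0.74 ± 0.21 in mutants (limma adjusted p 0.01586) and 0.51 ± 0.24 in wild-type mice (limma adjusted p 0.2888), and the call in mutants was lost without intact mutant 2 (0.65, limma adjusted p 0.05502). Has3 was the steadiest of the 10 genes, with 9.27 TPM in the lowest and 13.3 TPM in the highest library, a 1.43-fold range. Its change was -0.11 ± 0.11 in mutants (limma adjusted p 0.484) and 0.05 ± 0.12 in wild-type mice (limma adjusted p 0.8716), and these signs were not stable, since the value in mutants was 0.00010 with quantile normalization.

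The 3 synthase genes summed to 34.2 ± 3.09 TPM in intact (SD, n = 3) and 58.4 ± 22.8 TPM in injured wild-type discs (SD, n = 4), and to 39.5 ± 3.86 TPM in intact (SD, n = 4) and 71.5 ± 15.8 TPM in injured mutant discs (SD, n = 5). Has1 made up 35.5% ± 2.39 of this sum in intact and 49.8% ± 6.82 in injured mutants, and 24.7% ± 7.33 in intact and 38.8% ± 16.6 in injured wild-type mice. The share of Has3 went from 28.1% ± 2.24 to 14.8% ± 3.17 in mutants, without overlap. In wild-type mice it was 33.0% ± 2.85 in intact discs, from 31.0% to 36.2%, and 22.8% ± 10.3 in injured discs, from 13.01% to 35.6%, so that these groups overlapped. These shares are given without a test, having been chosen after the values were seen.

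**Figure D2:**
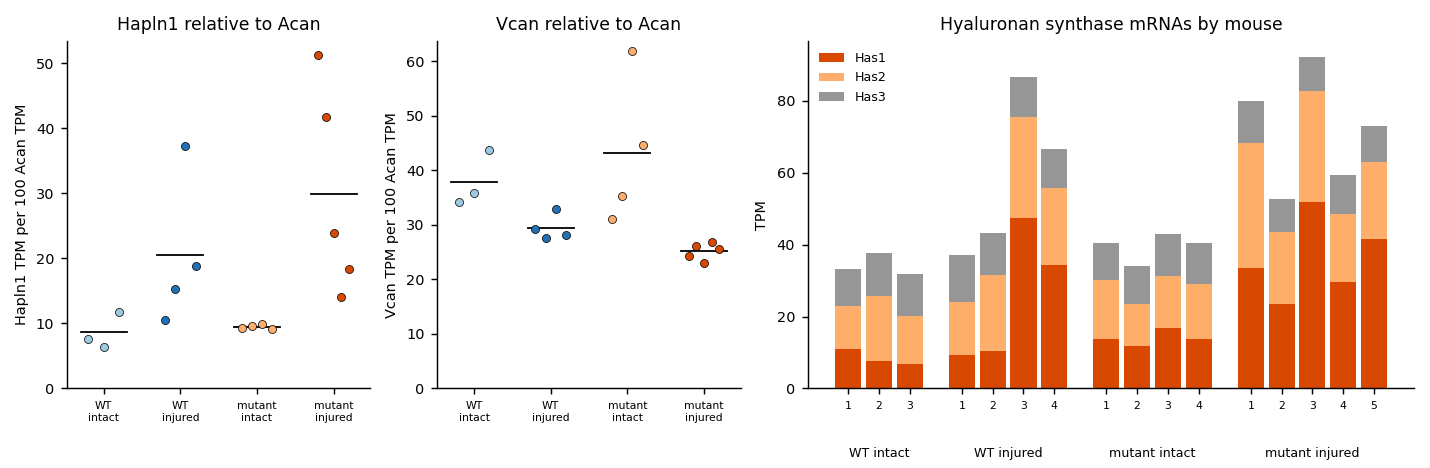
Left and middle, Hapln1 and Vcan TPM per 100 Acan TPM in each mouse, with the group mean as a line. Right, TPM of Has1, Has2 and Has3 stacked for each mouse, numbered within its group. Injured mutants lie at 23.0 to 26.8 Vcan per 100 Acan, below all intact mice, and the grey Has3 part of the bars keeps almost the same height throughout.

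Cd44, the main cell-surface receptor for hyaluronan, made the largest change of the 10 genes. It stood at 50.4, 56.7 and 49.2 TPM in intact wild-type discs and at 57.6, 48.5, 57.1 and 50.0 TPM in intact mutant discs. Injured wild-type discs held 67.8, 119.1, 565.9 and 319.2 TPM, and injured mutant discs 730.1, 675.7, 552.9, 350.2 and 392.4 TPM. All 9 injured mice lay above all 7 intact mice, injured wild-type mouse 1 by the smallest distance. The rise in mutants was 3.26 ± 0.45 (limma adjusted p 0.0004823), 9.60-fold on the TPM + 1 scale, and the change in the wild type was 1.89 ± 0.51 (limma adjusted p 0.1359). Among all genes Cd44 ranked 2933rd to 3762nd by TPM in intact mutants and 81st to 290th in injured mutants. The values are sums over the gene, so its splice forms are not told apart.

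Cemip, which brings about the cutting of hyaluronan outside the cell, had the lowest mean of the 10 over all 16 libraries, 7.14 TPM, although in injured mutants its mean of 13.3 TPM lay above those of Has3 (10.2 TPM) and Hapln3 (11.8 TPM). Wild-type mice held 2.86, 2.03 and 2.51 TPM in intact and 3.40, 4.66, 10.4 and 8.91 TPM in injured discs. Mutants held 2.78, 2.88, 3.24 and 4.31 TPM in intact and 9.89, 13.2, 15.4, 12.9 and 14.9 TPM in injured discs. Injured values lay above intact values within each genotype, and 79 or more reads stood behind each value as implied by its TPM. The rise in mutants was 1.73 ± 0.25 (limma adjusted p 0.0006454), 3.31-fold on the TPM + 1 scale, and the change in the wild type was 1.08 ± 0.29 (limma adjusted p 0.1319).

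Tnfaip6 encodes TSG-6, which is secreted in inflammation, binds hyaluronan and moves heavy chains of inter-alpha-inhibitor onto it. It stood at 12.7, 22.2 and 15.7 TPM in intact and 24.0, 40.5, 105.5 and 60.1 TPM in injured wild-type discs. Intact mutants held 26.7, 23.0, 35.1 and 20.5 TPM and injured mutants 249.1, 60.2, 254.9, 119.0 and 153.8 TPM. Injured values lay above intact values within each genotype, with the lowest injured mutant value in mouse 2. The rise in mutants was 2.47 ± 0.43 (limma adjusted p 0.001302), 5.55-fold on the TPM + 1 scale, and the change in the wild type was 1.55 ± 0.49 (limma adjusted p 0.1642). Tnfaip6 had the widest range of the 10 genes over the 16 libraries, 20.1-fold.

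Mutants of each naming were also fitted without the other mutants, with all wild-type mice kept in the fit. In A8, 3 of the 10 genes were called higher and 1 lower, where 7% of all genes tested were called higher and 8.62% lower. In M, 3 were called higher and 0 lower, where 1.4% of all genes were called higher and 1.76% lower. Cd44 and Cemip were called in both subsets. The change of Cd44 was 3.71 in A8 (limma adjusted p 0.02113) and 2.96 in M (limma adjusted p 0.04627), and that of Cemip was 1.70 in A8 (limma adjusted p 0.0323) and 1.70 in M (limma adjusted p 0.0415). Tnfaip6 changed by 2.26 in A8 (limma adjusted p 0.05518) and 2.595 in M (limma adjusted p 0.0338), and Hapln1 by 1.40 in A8 (limma adjusted p 0.04774) and 1.04 in M (limma adjusted p 0.08114), so each passed in 1 subset. Vcan changed by -1.28 in A8 (limma adjusted p 0.04189) and -0.97 in M (limma adjusted p 0.08024). Has1, at 1.07 in A8 (limma adjusted p 0.2964) and 1.34 in M (limma adjusted p 0.1974), and Has2, at 0.90 in A8 (limma adjusted p 0.0976) and 0.62 in M (limma adjusted p 0.1926), passed in neither. All 7 genes called over all mutants had the same sign in both subsets. This was fixed in advance, because their injured and intact mutant values did not overlap.

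**Figure D3:**
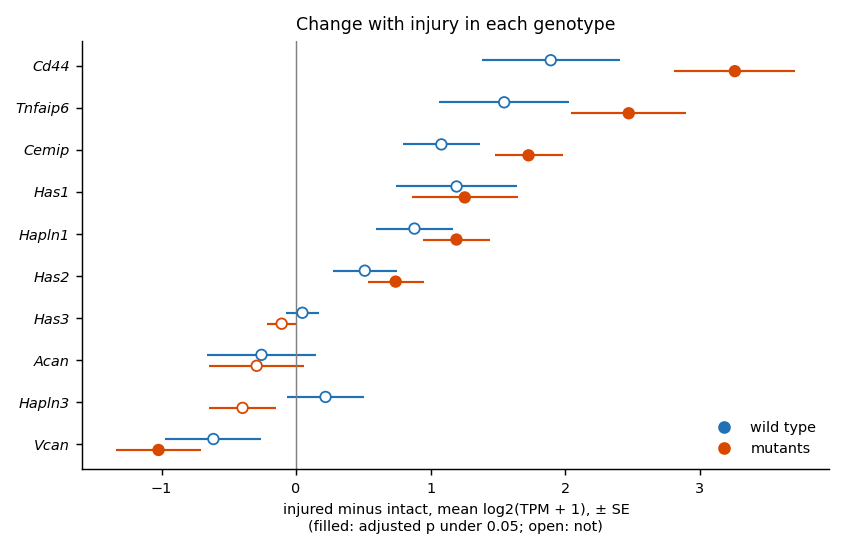
Change with injury of each of the 10 genes, as injured minus intact mean log2(TPM + 1), in wild-type mice (blue) and mutants (orange), with bars of 1 SE. Filled points passed an adjusted p under 0.05 in limma, and open points did not. The mutant points run from -1.02 for Vcan to 3.26 for Cd44, and all wild-type points are open.

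The promoters of the 3 genes with the largest rises in mutants are shown, because they rose together. The promoter table used, from RefSeq on GRCm38.p6, was matched for 8 of the 10 genes, all but Has2 and Has3. Printed are the bases before the start of the gene in both RefSeq and GENCODE, 5′ to 3′ on the strand of the gene, up to 250 bases, and capitals mark every match to a searched motif on either strand. The motifs were AP-1 (TGANTCA), NF-kappaB (GGGA, then 4 bases of any kind, then CC), STAT (TTCNNNGAA) and the TATA box (TATAAA), searched over the 250 bases before the RefSeq start. For Tnfaip6, 146 of these bases lie before both starts.
Cd44, chr2:102901666-102901915, minus strand: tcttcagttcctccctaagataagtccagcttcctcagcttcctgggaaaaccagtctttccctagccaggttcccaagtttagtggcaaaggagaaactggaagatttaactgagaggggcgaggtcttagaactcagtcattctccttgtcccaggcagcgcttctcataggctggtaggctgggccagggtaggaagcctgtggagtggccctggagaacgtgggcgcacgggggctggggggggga
Cemip, chr7:84086506-84086755, minus strand: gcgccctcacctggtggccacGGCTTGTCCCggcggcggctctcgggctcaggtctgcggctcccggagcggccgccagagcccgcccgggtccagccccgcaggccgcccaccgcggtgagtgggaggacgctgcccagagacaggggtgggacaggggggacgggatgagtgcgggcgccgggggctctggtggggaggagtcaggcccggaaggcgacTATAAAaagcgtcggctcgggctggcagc
Tnfaip6, chr2:52037863-52038008, plus strand: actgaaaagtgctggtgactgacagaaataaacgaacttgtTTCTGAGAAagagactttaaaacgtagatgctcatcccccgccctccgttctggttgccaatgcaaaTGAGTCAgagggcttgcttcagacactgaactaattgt
Counted from the RefSeq start, the Cemip promoter had an NF-kappaB match at -229 to -220, on the opposite strand, and a TATA box at -29 to -24. The Tnfaip6 promoter had a STAT match at -209 to -201 and an AP-1 match at -142 to -136. No 2 matches overlapped, and none of the 4 motifs occurred in the Cd44 window. The shares of all 32851 promoters in the RefSeq table with at least 1 match over the same 250 bases were 6.75% for AP-1, 17.6% for NF-kappaB, 7.02% for STAT and 12.4% for the TATA box. A match is a description of the sequence and not a binding site.

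The other genes of hyaluronan and aggrecan metabolism were read from 7 lists with 42 symbols, of which 32 genes passed the filter. In injured mutants 10 of these 32 rose and 6 fell, beside the 30.8% called among all genes. In wild-type mice 1 of the 32 was called, Tmem2, which encodes a cell-surface hyaluronidase. It stood at 9.13 to 9.47 TPM in intact and 20.2 to 34.1 TPM in injured wild-type discs, a change of 1.41 ± 0.23 (limma adjusted p 0.04139). In mutants it went from 10.2 to 16 TPM in intact to 22.3 to 44.7 TPM in injured discs, a rise of 1.52 ± 0.20 (limma adjusted p 0.0004667). The wild-type call was lost in 5 of the 7 fits that left out 1 wild-type mouse, with limma adjusted p of 0.07886 without injured mouse 2, 0.1013 without injured mouse 3, and 0.1418, 0.1645 and 0.1248 without intact mouse 1, 2 and 3.

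Of the 8 other tested genes of hyaluronan receptors and breakdown enzymes, 3 rose and 2 fell in mutants. Stab1, a scavenger receptor of macrophages and sinus endothelium, rose by 4.01 ± 0.80 (limma adjusted p 0.002704) from 0.632 to 3.16 TPM in intact to 16.2 to 140.3 TPM in injured mutants. Hmmr, a hyaluronan-binding protein of dividing cells, rose by 1.28 ± 0.32 (limma adjusted p 0.00917), and Layn rose by 0.40 ± 0.14 (limma adjusted p 0.04949). Stab2, an endocytic hyaluronan receptor, fell by 0.62 ± 0.22 on the log2 scale (limma adjusted p 0.04563), and the lysosomal hyaluronidase gene Hyal1 fell by 0.69 ± 0.21 (limma adjusted p 0.02348). Injured and intact mutant values overlapped for Layn, Stab2 and Hyal1. For Hyal1, injured mutant 2 stood at 19.47 TPM, above the highest intact mutant at 19.39 TPM. Lyve1, Hyal2 and Hyal3 did not pass.

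Of the 8 genes that make the sugar precursors of hyaluronan, 4 rose in mutants, 0 fell and 4 did not pass. Ugdh, which makes UDP-glucuronate, rose by 1.14 ± 0.22 (limma adjusted p 0.002461), from 69.9 to 107.5 TPM in intact to 96.2 to 247.3 TPM in injured mutants. Gfpt2 and Uap1, of the branch to UDP-N-acetylglucosamine, rose by 0.80 ± 0.22 (limma adjusted p 0.01302) and 0.76 ± 0.18 (limma adjusted p 0.006763). Ugp2, which makes UDP-glucose, rose by 0.50 ± 0.14 (limma adjusted p 0.01276). In each of Ugdh, Gfpt2 and Uap1, injured mutant 2 had the lowest injured value, and injured and intact mutant values overlapped.

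Of the 4 tested heavy chain and TSG-6 partner genes, 1 rose and 2 fell in mutants, and the 2 that fell encode heavy chains. Itih5 fell in mutants by 2.70 ± 0.35 on the log2 scale (limma adjusted p 0.0004096), from 62.0 to 139.7 TPM in intact to 6.70 to 31.95 TPM in injured discs. Itih2 fell by 1.51 ± 0.23 (limma adjusted p 0.0007846), from 16.6 to 20.1 TPM to 3.02 to 8.44 TPM. Neither pair of mutant groups overlapped. Ptx3, which encodes a TSG-6 partner in hyaluronan matrices, rose by 1.05 ± 0.35 (limma adjusted p 0.03409). Itih4 did not pass, and Itih1, Itih3 and Ambp did not reach the filter.

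Of the 7 tested genes of the proteases that cut aggrecan and versican with their inhibitor Timp3, 1 rose and 1 fell in mutants. Adamts4 rose by 2.49 ± 0.60 (limma adjusted p 0.006966), from 0.0644 to 0.737 TPM in intact to 2.61 to 15.4 TPM in injured discs. Adamts20 fell by 1.76 ± 0.47 (limma adjusted p 0.01208), with overlap of injured and intact mutant values. Adamts5, the other main aggrecanase, had a level of 16.2 to 26.2 TPM in intact and 18.5 to 51.6 TPM in injured mutants and did not pass (0.18 ± 0.26, limma adjusted p 0.635). Of the Sox genes that drive Acan in chondrocytes, Sox6 fell by 0.63 ± 0.21 (limma adjusted p 0.03447), Sox9 (0.58 ± 0.24, limma adjusted p 0.07571) and Sox5 did not pass. The calls of Stab2, Layn, Hyal1, Ptx3 and Sox6 in mutants were each lost in at least 1 fit that left out a mutant mouse, and those of the other 11 were not. The highest limma adjusted p of such fits was 0.1547 for Stab2, 0.1682 for Layn and 0.06687 for Hyal1, each without intact mutant 1, 0.09025 for Ptx3 without intact mutant 2 and 0.08665 for Sox6 without intact mutant 4. With only A8 mutants kept beside the wild-type mice, 6 of the 32 list genes were called higher and 4 lower. With only M mutants kept, 6 were called higher and 3 lower. The shares of all genes called in those subsets, given above, were 7% and 8.62% in A8 and 1.4% and 1.76% in M.

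**Figure D4:**
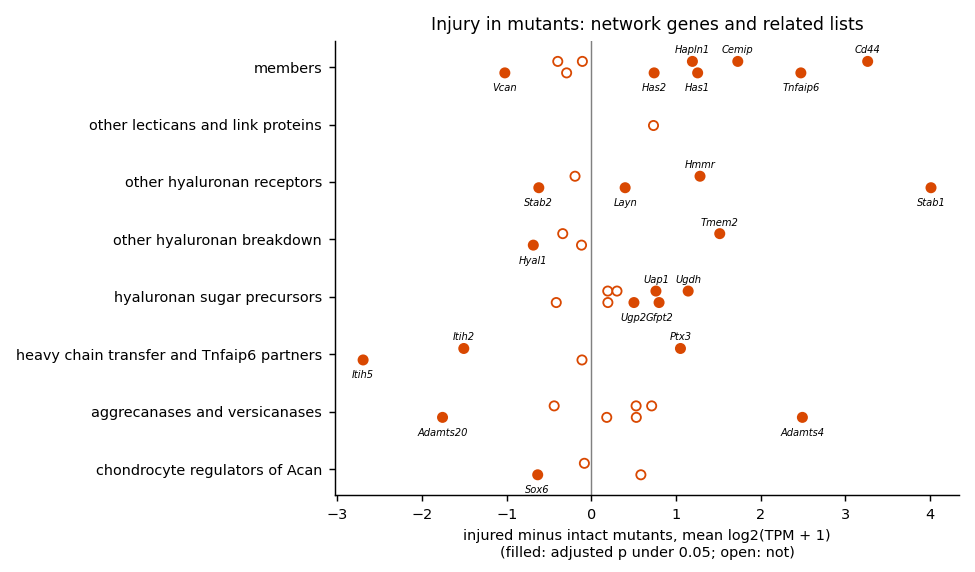
Change with injury in mutants, as injured minus intact mean log2(TPM + 1), for the 10 genes (top row, members) and the 7 other lists. Each point is 1 gene, filled and named where the adjusted p was under 0.05 in limma and open where it was not. Tmem2 lies at 1.52 near Cemip at 1.73, and Itih5 lies lowest at -2.70.

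Between genotypes in intact discs 0 of the 10 genes were called with limma, where 0.0165% of all genes tested were called, and 0 had an unadjusted p under 0.05, against 3.78% of all genes. The largest differences, mutant minus wild type, were those of Has1 at 0.70 ± 0.45, Tnfaip6 at 0.62 ± 0.49 and Hapln3 at 0.54 ± 0.28 (limma adjusted p 1 each). Has1 was the 1 gene of the 10 whose intact groups did not overlap, a separation seen in 6.18% of all genes, with 6.68 to 11.1 TPM in the wild type and 11.9 to 16.8 TPM in mutants.

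Between genotypes in injured discs 0 of the 10 genes were called with limma, where 0.918% of all genes tested were called. At an unadjusted p under 0.05 there were 3, against 20.3% of all genes, and all 3 had higher means in mutants. Tnfaip6 differed by 1.55 ± 0.43 (limma adjusted p 0.08034), with a mean of 167.4 ± 84.2 TPM in mutants (SD, n = 5) and 57.5 ± 35.2 TPM in the wild type (SD, n = 4). Cd44 differed by 1.40 ± 0.45 (limma adjusted p 0.114), at 540.2 ± 167.7 TPM (SD, n = 5) against 268.0 ± 226.3 TPM (SD, n = 4). Cemip differed by 0.95 ± 0.25 (limma adjusted p 0.07622), at 13.3 ± 2.17 TPM (SD, n = 5) against 6.85 ± 3.35 TPM (SD, n = 4). Has1 (0.76 ± 0.39, limma adjusted p 0.2954) and Hapln1 (0.46 ± 0.25, limma adjusted p 0.3121) came next. The injured groups overlapped for 10 of the 10 genes, and 4.77% of all genes did not overlap. The spread of injured wild-type mice entered all of these values. Without injured wild-type mouse 3, where 9.5% of all genes were called, all 3 genes were called, Tnfaip6 at 1.90 (limma adjusted p 0.01719), Cd44 at 1.91 (limma adjusted p 0.01177) and Cemip at 1.17 (limma adjusted p 0.01438), and without injured mutant 2, where 2.82% of all genes were called, Tnfaip6 was called at 1.87 (limma adjusted p 0.02169). With limma's weights for each library, Tnfaip6 (limma adjusted p 0.02371), Cd44 (limma adjusted p 0.04797) and Cemip (limma adjusted p 0.03139) were called as well, beside 4.42% of all genes. Injured wild-type mouse 3 held the highest level of its group for all 3 genes. Cd44 and Cemip stayed uncalled in 18 of 20 alternatives each, and Tnfaip6 in 17 of 20. The highest limma adjusted p was 0.3279 for Cd44, 0.3372 for Cemip and 0.3271 for Tnfaip6.

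A test of whether the injury effect differed between genotypes called 0 of the 10 genes with limma, and 0% of all genes tested. None of the 10 had an unadjusted p under 0.05 there, against 8.18% of all genes. The effect in mutants minus the effect in the wild type was 1.37 ± 0.68 for Cd44 (limma adjusted p 0.6284), 0.93 ± 0.65 for Tnfaip6 (limma adjusted p 0.7425) and 0.65 ± 0.38 for Cemip (limma adjusted p 0.6864). The calls in mutants and their absence in the wild type are therefore not shown to differ. Of the other pathway genes, 1 was called between genotypes in injured discs. Itih2 was lower in injured mutants, at 3.02 to 8.44 TPM against 10.5 to 17.03 TPM, by -1.19 ± 0.23 (limma adjusted p 0.03388). Its call was lost in 12 of 20 alternatives, with a highest limma adjusted p of 0.2233 when only the 2 injured groups were fitted. These included 6 of the 9 fits that left out 1 injured mouse, with a highest limma adjusted p of 0.1314 without injured wild-type mouse 2. Itih5 differed by -1.57 ± 0.35 (limma adjusted p 0.05043) and did not pass. It was called in 6 of 20 alternatives. Among fits without 1 mouse these were those without injured wild-type mouse 3 (limma adjusted p 0.02772), injured mutant 2 (limma adjusted p 0.009894) or injured mutant 4 (limma adjusted p 0.03522). The others were array weights (limma adjusted p 0.02296), genes of at least 5 TPM on average (limma adjusted p 0.04211) and only M mutants kept beside the wild type (limma adjusted p 0.02715). The injury effects of these 2 genes differed by -1.28 ± 0.35 for Itih2 and -2.11 ± 0.54 for Itih5 (limma adjusted p 0.4879 each), which did not pass.

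Some markers of other cells moved with injury as well. The summed level of 6 leukocyte markers was 119.5 to 163.2 TPM in intact discs. It was 195.3, 324.4, 3218 and 2100.0 TPM in injured wild-type mice 1 to 4 and 1673, 6879, 1010.2, 2099.7 and 614.9 TPM in injured mutants 1 to 5. Of these markers 5 of 6 were called higher in injured mutants, as were 4 of 5 neutrophil markers, beside 13.1% of all genes tested. The pan-leukocyte gene Ptprc rose by 3.24 ± 0.65 (limma adjusted p 0.002767). No tested endothelial, skeletal muscle, bone, fat, skin or red cell marker was called in injured mutants. Injured wild-type mouse 3 held the highest endothelial and red cell sums of all mice, at 159.8 and 1440.1 TPM. Cd44 is itself abundant in leukocytes. In injured wild-type mice the order of the leukocyte sum, with mouse 1 lowest, then 2, 4 and 3, was also the order of Cd44, Cemip, Tnfaip6, Has1 and Has2. It was not the order of Hapln1, which stood at 1165 TPM in mouse 3 and 1181 TPM in mouse 4. The share of all genes with this order was not counted. The 5 genes that had it also correlated with one another over the 16 libraries (Pearson r 0.75 to 0.95). Of the leukocyte sum in injured wild-type mouse 3, 2453 TPM came from Lyz2. Among injured mutants the order was not the same for any of the 6 genes that rose. Injured mutant 5, with the lowest leukocyte sum of its group, held 392.4 TPM of Cd44 and 153.8 TPM of Tnfaip6, while injured mutant 2, with the highest, held 675.7 TPM of Cd44 and, at 60.2 TPM, the lowest Tnfaip6 of its group. The part of leukocytes in these changes was not tested.

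The summed cartilage and annulus markers were lowest in the same mice in which Acan and Vcan were lowest, at 2668 TPM in injured wild-type mouse 3 and 2399.4 TPM in injured mutant 2, against 5790 to 16557 TPM in the other injured mice. Most of this sum came from Chad, Col2a1 and Comp. Chad, Col2a1, Col9a1 and Matn3 were each lowest of the injured mice in wild-type mouse 3 and mutant 2. Comp and Cnmd were instead lowest in injured mutant 1, at 250.5 and 8.15 TPM. In injured mutants 3 of 6 cartilage markers and 3 of 4 tested notochordal markers were called lower, beside 17.7% of all genes tested. Col2a1, the collagen of cartilage, was not (-0.04 ± 0.58, limma adjusted p 0.9687). The summed notochordal markers were lowest in injured mutant 1, at 31.4 TPM, and next lowest in injured mutant 3, at 213 TPM. Acan stood at 4515 TPM in injured mutant 1 and at 6676 TPM in injured mutant 3. The sum of 4 fibroblast and tendon markers was 6176 TPM in injured wild-type mouse 3, above the 639.2 to 2408 TPM of the other 15 mice, and 6014 TPM of it came from Col1a1. In injured mutants 1 of the 4, Pdgfra, was called higher and 2, Scx and Tnmd, lower. The part of the tissue make-up in the levels of Acan and Vcan was not tested.

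**Figure D5:**
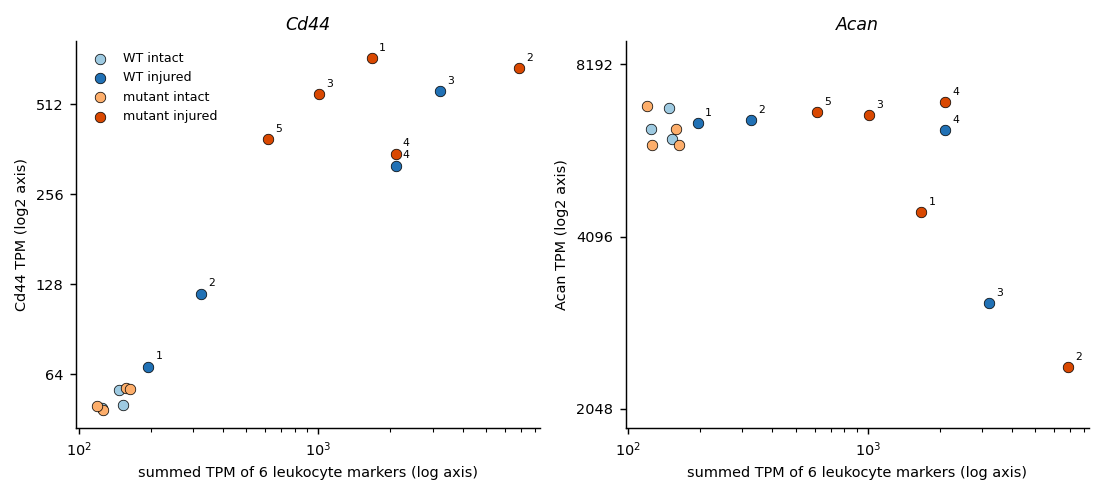
Level of Cd44 (left) and Acan (right) in TPM on a log2 axis against the summed TPM of 6 leukocyte markers on a log axis, 1 point per mouse, with injured mice numbered within their group. Injured mice 1 and 2 of the wild type lie between the intact mice and the rest for Cd44, and Acan is low in injured wild-type mouse 3 and in injured mutants 1 and 2.

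Across the 16 libraries, the genes whose log2(TPM + 1) was most like that of a network gene were found among the 11923 genes that averaged 5 TPM or more. For Acan they were Creb3l2 (Pearson r 0.93), Acsl3 (0.93) and Fxyd6 (0.91), and for Vcan P3h4 (0.95), Tuba3a (0.94) and B4galnt3 (0.94). For Has2 they were Hars (0.93), Ampd2 (0.93) and Slc39a13 (0.93), and for Tnfaip6 Lrrc8c (0.98), Slc39a13 (0.98) and Ntrk2 (0.97). Slc39a13, a zinc transporter of connective tissue, was thus near both Has2 and Tnfaip6. The libraries of these correlations share the contrast of injured and intact discs, and the values are a description.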

How the data were processed

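Values are TPM as deposited by the authors, in 1 table with a column for each of the 16 mice. Per the labels' protocols, ribosomal RNA was depleted and libraries were made from total RNA, while the molecule field reads polyA RNA. The submitters' processing notes name GRCm38 and bcl2fastq 2.20, and the aligner, the counting and its use of strand are not given in the sources used here. Positions and exon lengths came from GENCODE M21, and 94.2% to 95.0% of low values (under 20 implied reads) lay within 0.05 of a whole read. Implied reads are approximations, and errors given are between mice.

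The 24188 genes that reached 1 TPM in 3 or more libraries were tested on log2(TPM + 1), a pseudocount of 1, with limma 3.58.1 in R 4.3.3 (lmFit, eBayes with trend), in 1 fit of all 16 libraries without covariates, with Benjamini-Hochberg adjustment over all of them. The fit was tested on simulated data. Tables were made with Python 3.11.15. The alternatives were a pseudocount of 0.1, no filter, a mean of at least 5 TPM, eBayes without trend, quantile normalization, median-of-ratios scaling, array weights, a replicate block, only the groups compared, the library naming, and leaving out each mouse. The 10 genes and the lists were chosen with earlier results of these data known. Every network gene is named, list genes where called, and for Acan, Vcan, Has2 and Tnfaip6 the 3 most correlated genes. Marker genes and list genes that were not called were named after their values were seen.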

Additional observations from a re-analysis of the deposited data

Results flagged for a closer look

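In 30 groups of 4 or 5 mice, 2 values stood apart from the rest of their group by Dixon's test, and chance alone flags about 1 group in 20. Both were the lowest value of injured wild-type mice and both came from mouse 3. Its Acan level was 3130.1 TPM, while the other 3 mice lay between 6275.5 and 6538.6 TPM, a gap of 0.92 of the range against a critical value of 0.829. Its Vcan level was 1030.6 TPM, with the nearest mouse at 1769.9 TPM and the highest at 1893.6 TPM, a gap of 0.86 of the range.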

How the results depend on the processing

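Of 990 values of the 10 genes under an alternative, 51 had the opposite sign. They came from 14 differences of at most 0.30 (log2), and 0 of these were called. The count of genes called after injury in mutants was 3 higher and 0 lower with only M mutants kept beside the wild type (1.4% and 1.76% of all genes). It was 3 higher with only A8 mutants kept (7% of all genes), and 0 lower when only the mutant groups were fitted. With 1 mouse left out, the genes called ranged from 4 to 6 higher and from 0 to 1 lower after injury in mutants. After injury in the wild type they ranged from 0 to 2 higher, with 2 without injured mouse 1 (1.93% of all genes). Between genotypes in injured discs they ranged from 0 to 3 higher, with 3 without injured wild-type mouse 3 (9.5% of all genes). Array weights gave 3 higher in this last comparison (4.42% of all genes). For the fit of only the mutant groups, and for injury in mutants with 1 mouse left out, the shares of all genes called are not given. Acan after injury was 0.0902 in M mutants and, in the wild type with 1 mouse left out, from -0.35 to 0.0017 (without injured mouse 3). Has3 after injury was 0.00010 in mutants with quantile normalization, and in the wild type with 1 mouse left out it ranged from -0.011 (without injured mouse 1; -0.0087 without intact mouse 1) to 0.087. The causes were not tested. Numbers shared between groups name different mice. Deviations of same-numbered libraries correlated at -0.22 to 0.15 over 21 pairs, 1 of them over 0.1, so the mice were not treated as pairs. With a replicate block, 6 of the 10 genes were called higher and 1 lower after injury in mutants and 0 in the other comparisons. The share of all genes called with this block is not given. The wild-type call of Tmem2 was lost with the replicate block (limma adjusted p 0.1227). In mutants the calls of Layn (limma adjusted p 0.07873) and Ptx3 (limma adjusted p 0.06264) after injury were lost with it. The call of Itih2 between genotypes in injured discs was lost as well (limma adjusted p 0.08839).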
